A study of Homo sapiens with 8 samples.

Results

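Amino acid transporter genes were defined as all genes of the SLC1, SLC3, SLC6, SLC7, SLC36, SLC38 and SLC43 families that the array design names by these prefixes, and they were followed across 4 groups of HCT-116 cells. The rule matched 90 probes of 62 genes among the 50599 probes on the array. Of these, 53 probes of 41 genes stood well above background in both duplicates of any group and were tested, beside 28677 probes tested in all. Of the 37 probes left out, 32 were above background on no array and 5 on 1 array only. SLC7A5P1 and SLC7A6OS match by name only: the former is a pseudogene copy of part of SLC7A5, and the latter is a gene beside SLC7A6 that encodes no transporter.

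HCT-116 is a human colorectal carcinoma line, and its RNA was hybridized in duplicate, with 1 dye, to 8 Agilent arrays whose probes are 60 bases long. The groups were untreated parental cells (WT), parental cells given NU6102, an inhibitor of CDK1 and CDK2, at 20 µM for 24 h (WT+NU6102), untreated cells of a purchased CDK2 knockout line (CDK2-/-) and R50 cells, a line obtained by growing HCT-116 in 50 µM NU6102 from the beginning and kept in it. The study compared acute CDK inhibition, loss of the CDK2 gene and acquired resistance. The sources used here do not say whether CDK2-/- is 1 clone or whether duplicates came from separate cultures, so the spread between duplicates may be technical. R50 differs from WT+NU6102 in line, dose and duration of exposure together.

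Cells cannot make all amino acids and take them up through membrane carriers, most of which exchange 1 amino acid for another or use the gradient of sodium or protons. SLC1, SLC6 and SLC38 proteins concentrate glutamate, glutamine and other neutral amino acids with sodium. SLC7 light chains such as LAT1 and xCT need an SLC3 heavy chain to reach the membrane, and SLC36A1 and SLC38A9 act at the lysosome, where amino acids are sensed by the growth kinase complex mTORC1.

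Values below are log2 of the background-subtracted signal minus the 75th percentile of the array, so 0 is the level of that percentile, and they can be compared between arrays for 1 probe but not between probes. Passing means a Benjamini-Hochberg adjusted p under 0.05 over all 28677 probes in limma, and calling requires in addition a difference of 1 or more on the log2 scale in either direction, which is 2-fold. Duplicates correlated with r between 0.994 and 0.996 across probes. Arrays of WT and WT+NU6102 shared slide 2 and those of CDK2-/- and R50 shared slide 1, so the effect of treatment on WT and the difference between R50 and CDK2-/- lie within a slide. Elsewhere slide cannot be told apart from group. The CDK2 probe read −1.58 and −1.53 in CDK2-/- and −0.78 and −0.77 in WT (log2 fold change −0.78, adjusted p = 0.000271), and where it lies relative to the deletion is not given in the sources used here. Among 12 colorectal epithelial markers, 7 stood well above background on every array, and VIL1, CEACAM5 and LGR5 on none. Of 13 markers of other cell types 6 were above background on all arrays and 3 (COL1A2, COL3A1 and ALB) on none. The summed signal of these 13, in units of the 75th percentile, was 3.71 to 4.09 in WT, 3.12 to 3.43 in WT+NU6102, 3.80 to 4.24 in CDK2-/- and 4.31 to 4.32 in R50. DES, at 1.15 to 1.58 on the log2 scale, weighs most in this sum, and all others of the 13 read below 0.

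NU6102 treatment moved many transporter genes by less than 2-fold, more of them up than down. Against WT, 21 of 53 probes rose and 12 fell, which is 39.6% and 22.6%, where 23.6% of all tested probes rose and 21.1% fell. Counted by the brightest probe of each gene, 17 of 41 genes rose and 10 fell. The 17 include 4 of the 6 tested SLC6 genes grouped under transmitters and osmolytes, of which 0 fell. They also include SLC7A5P1 and SLC7A6OS, so the excess of rises is not one of amino acid carriers alone. The rising probes include 3 of SLC6A8 and 1 of its pseudogene copy SLC6A10P. The median log2 fold change was 0.22 for the transporter probes and 0.03 for all probes. Calls were few: 3 probes were called, all lower, or 5.66%, beside 6.49% of all tested probes (1.27% higher and 5.22% lower). SLC7A8 is among the 3 by its fitted value, but it was at background in treated cells and its bound of 1.47-fold is under the 2-fold minimum. Duplicates of both groups did not overlap for 41 of 53 transporter probes, and for 74% of all tested probes. Markers moved with the treatment too: of 9 tested markers of other cell types 0 rose and 4 fell. Of 9 tested epithelial markers 3 rose and 3 fell. Among the latter, KRT20 was at least 4.29-fold lower in treated cells, where it was not well above background (adjusted p = 8.38e-05). The KRT20 probe entered the test only through groups where it was high, so this p-value is no separate support. The summed signal of the 12 epithelial markers was 472 to 483 in WT, 554 to 575 in WT+NU6102, 594 to 617 in CDK2-/- and 736 to 740 in R50. The sum was thus higher than in WT in untreated CDK2-/- cells too. With NU6102 the median log2 fold change of the 9 tested epithelial markers was −0.30, although the sum rose. Their part in the results was not tested. In cells measured in bulk, less RNA per cell and fewer expressing cells cannot be told apart.

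Fewer probes passed in CDK2-/- and R50 cells than with NU6102, both among transporter probes and among all tested probes. Of all tested probes 31.1% and 22.6% passed, against 44.7% with NU6102. Of transporter probes 20 and 15 passed (37.7% and 28.3%), against 33 (62.3%), and the difference between these counts was not tested. In CDK2-/- cells 7 were higher and 13 lower than in WT, beside 15.8% of all tested probes higher and 15.3% lower (31.1% together). Of them 2 were called, both SLC1A3 and both lower, beside 4.74% of all probes called (2.44% higher and 2.3% lower). Duplicates did not overlap for 38 of 53, and for 69.1% of all probes. Of the 9 tested markers of other cell types 5 were higher and 0 lower in CDK2-/- than in WT, with a median log2 fold change of 0.61, and COL1A1 was higher by 1.22 (adjusted p = 0.000376). Against WT, 3 of the 9 tested epithelial markers were higher and 1 lower in CDK2-/-, and 4 were higher and 1 lower in R50. In R50 cells 6 transporter probes were higher and 9 lower than in WT, beside 9.78% and 12.8% of all probes and 22.6% that passed. None was called by limma, where 2.59% of all probes were called (1.64% higher and 0.952% lower). An unadjusted p under 0.05 was found for 20 of the 53 transporter probes, and for 10560 of all 28677 tested probes. After normexp background correction 1 was called, and duplicates did not overlap for 34 of 53, and for 63.4% of all probes.

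R50 against CDK2-/-, within a slide, gave 10 higher and 9 lower transporter probes, beside 15.2% and 19.3% of all probes and 34.4% that passed. The 3 calls were all higher, beside 5.2% of all probes called (2.85% higher and 2.36% lower), and duplicates did not overlap for 32 of 53, and for 69% of all probes. R50 against WT+NU6102 shares the treated arrays with the first comparison. It gave 14 higher and 23 lower, beside 22.9% and 28.5% of all probes and 51.4% that passed. Of the 9 tested markers of other cell types 4 were higher and 0 lower, with ACTA2 and COL1A1 called. There were 6 calls of transporter probes, 2 higher and 4 lower, SLC7A8 included though its bound is 1.96-fold, beside 10.9% of all probes called (7.61% higher and 3.26% lower), and duplicates did not overlap for 46 of 53, and for 75.2% of all probes. By limma's moderated F-test at an adjusted p under 0.001, 21 of 53 probes differed among the 4 groups, beside 21.1% of all tested probes. This count fell when any 1 array was left out, to 10 with a replicate block and to 2 without a filter on dim probes. Shares of all tested probes under these settings were not computed. A fall among transporter probes alone therefore cannot be told apart from a general one.

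**Figure D1:**
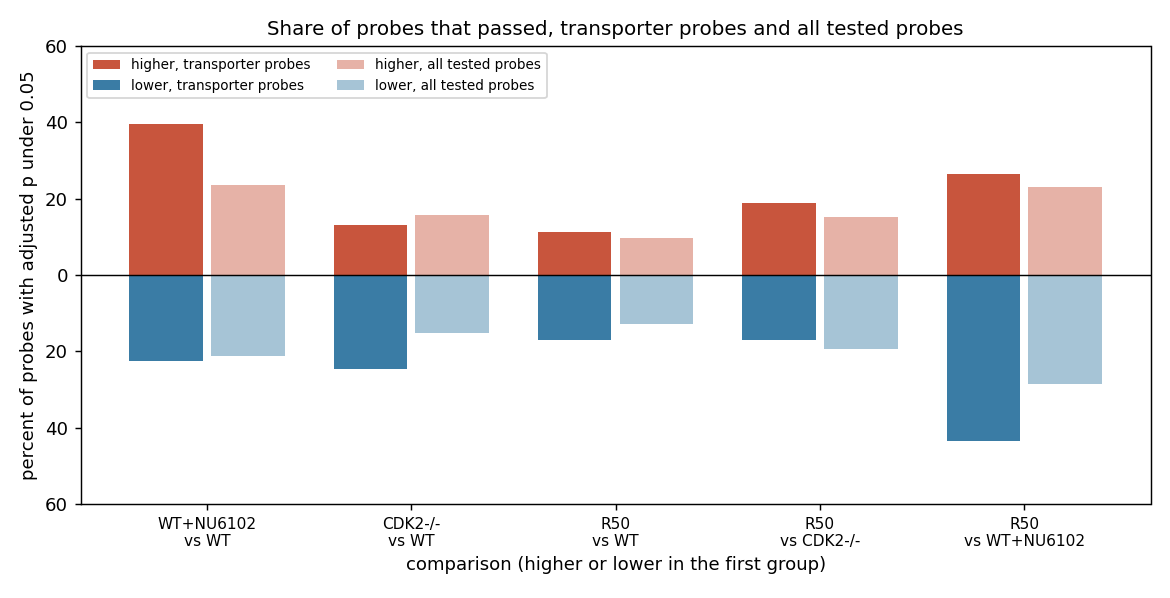
Percent of probes with an adjusted p under 0.05 in each of 5 comparisons, drawn up for higher and down for lower in the first group, with the 53 transporter probes in dark and all 28677 tested probes in light colour. In WT+NU6102 against WT 39.6% of the transporter probes were higher, against 23.6% of all probes.

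**Figure D2:**
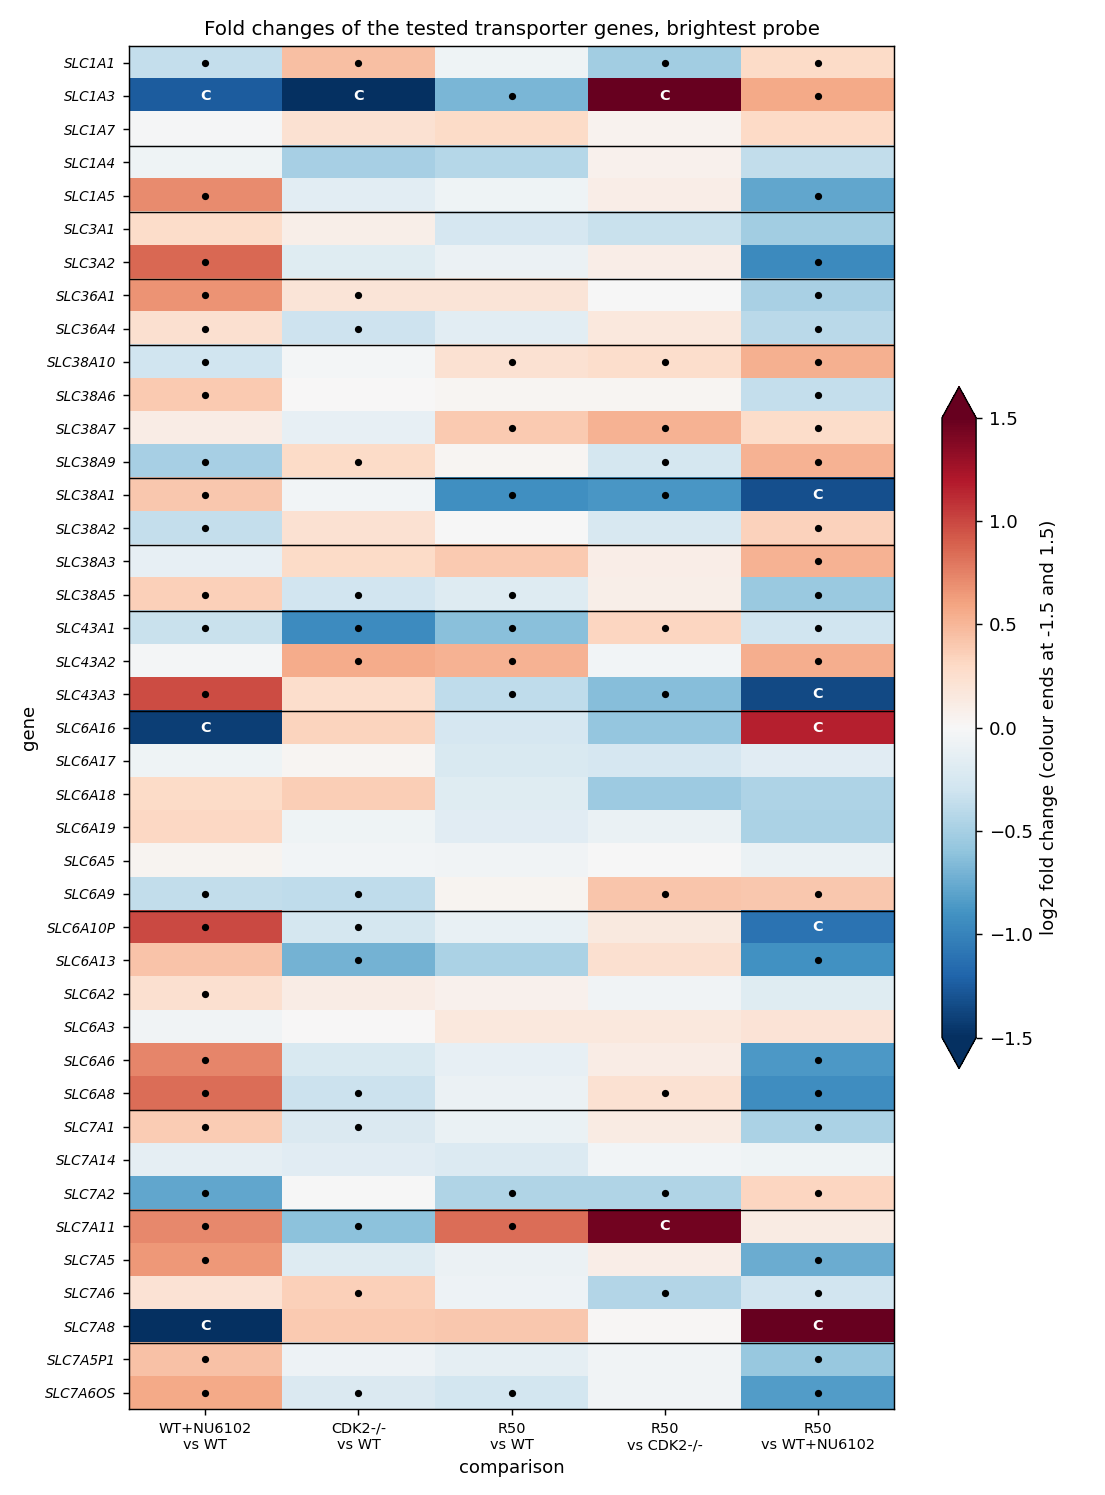
Log2 fold change of the brightest probe of each of 41 tested genes (rows, grouped by family and role, with lines between groups) in 5 comparisons (columns). Red is higher and blue lower in the first group, a dot marks an adjusted p under 0.05, and a C marks a gene that also changed by at least 2-fold. The first and last columns share the WT+NU6102 arrays.

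SLC1A3, the glutamate and aspartate carrier GLAST, had the smallest F-test p of the transporter probes (adjusted p = 2.46e-05). Its brighter probe (chr5:36688204-36688263, hg19) read 1.74 and 1.69 in WT, 0.41 and 0.51 in WT+NU6102, −1.10 and −1.02 in CDK2-/- and 1.01 and 1.03 in R50. No arrays of different groups overlapped, and the order was WT, R50, WT+NU6102 and CDK2-/-. In CDK2-/- cells the signal was 6.83-fold lower than in WT (log2 fold change −2.77, SE 0.06, adjusted p = 1.72e-05). With NU6102 it fell 2.38-fold within a slide (−1.25, adjusted p = 0.000148), and R50 lay 4.23-fold above CDK2-/-, also within a slide (2.08, adjusted p = 3.29e-05). Against WT, R50 was lower by a smaller step (−0.69, adjusted p = 0.00188). A second probe upstream in the gene (chr5:36609249-36609308), named for the same gene and much dimmer, had the same sign in all 5 comparisons and passed in 3. Its log2 fold change was −1.40 in CDK2-/- against WT (adjusted p = 0.00189), 1.06 in R50 against CDK2-/- (adjusted p = 0.00411) and, without passing, −0.34 in R50 against WT and 0.29 in R50 against WT+NU6102 (adjusted p = 0.166 and 0.153).

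SLC1A1, the glutamate and cysteine carrier EAAC1, showed another pattern. It read 0.94 and 0.93 in WT, 0.62 and 0.54 in WT+NU6102, 1.39 and 1.38 in CDK2-/- and 0.97 and 0.76 in R50. The CDK2-/- arrays were the highest and the treated arrays the lowest, while R50 overlapped WT. The log2 fold change was 0.46 in CDK2-/- against WT (adjusted p = 0.00959), where SLC1A3 was lower. It did not pass without replicate 2 of WT or replicate 1 of CDK2-/- (adjusted p = 0.0502 and 0.0503). SLC1A7, a carrier of the retina, passed in none of the comparisons, and no probe of SLC1A2 or SLC1A6 was tested.

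The neutral amino acid exchanger SLC1A5 (ASCT2), which brings in glutamine, rose with NU6102. Its arrays read 1.89 and 1.94 in WT, 2.61 and 2.65 in WT+NU6102, 1.75 and 1.76 in CDK2-/- and 1.82 and 1.88 in R50. The treated arrays stood above all others, 1.64-fold above WT (log2 fold change 0.71, SE 0.05, adjusted p = 0.000323). SLC1A4 (ASCT1), which exchanges alanine, serine and cysteine, was dim, between −5.51 and −4.29, and well above background on 6 of 8 arrays. Its log2 fold change with NU6102 was −0.06 and did not pass (adjusted p = 0.913).

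SLC3A2, the CD98 heavy chain that carries light chains to the membrane, and SLC7A5 (LAT1), the light chain for leucine and other large neutral amino acids, both rose with NU6102. SLC3A2 (chr11:62652689-62652748) read 3.37 and 3.39 in WT, 4.20 and 4.28 in WT+NU6102, 3.22 and 3.17 in CDK2-/- and 3.25 and 3.33 in R50. SLC7A5 (chr16:87863907-87863966) read 3.32 and 3.34 in WT, 4.0 and 3.97 in WT+NU6102, 3.10 and 3.17 in CDK2-/- and 3.17 and 3.31 in R50. For both genes the treated arrays lay above all 6 other arrays, and those of CDK2-/- and R50 lay below WT. The rise was 1.81-fold for SLC3A2 (log2 fold change 0.86, SE 0.06, adjusted p = 0.000272) and 1.58-fold for SLC7A5 (0.66, SE 0.06, adjusted p = 0.000849). Neither passed in CDK2-/- or R50 against WT, with log2 fold changes of −0.19 and −0.09 for SLC3A2 and −0.20 and −0.09 for SLC7A5. The pseudogene SLC7A5P1 rose by 0.44 (adjusted p = 0.00126), and its probe and transcripts of SLC7A5 may not be distinct, so that value is uncertain. The other heavy chain, SLC3A1, was dim and passed in none of the comparisons.

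SLC7A11 encodes xCT, the light chain that takes up cystine, the precursor of cysteine for glutathione, in exchange for glutamate. It read 2.05 and 2.00 in WT, 2.79 and 2.69 in WT+NU6102, 1.48 and 1.34 in CDK2-/- and 2.91 and 2.81 in R50. Treated and R50 arrays were all above WT and those of CDK2-/- below it, and no arrays of different groups overlapped. It rose 1.64-fold with NU6102 (log2 fold change 0.72, SE 0.07, adjusted p = 0.000980). In R50 it was 1.78-fold above WT (0.83, adjusted p = 0.00207) and 2.73-fold above CDK2-/- within a slide (1.45, adjusted p = 0.000171). The difference between R50 and WT+NU6102 was 0.12 with an SE of 0.07 and did not pass (adjusted p = 0.238).

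**Figure D3:**
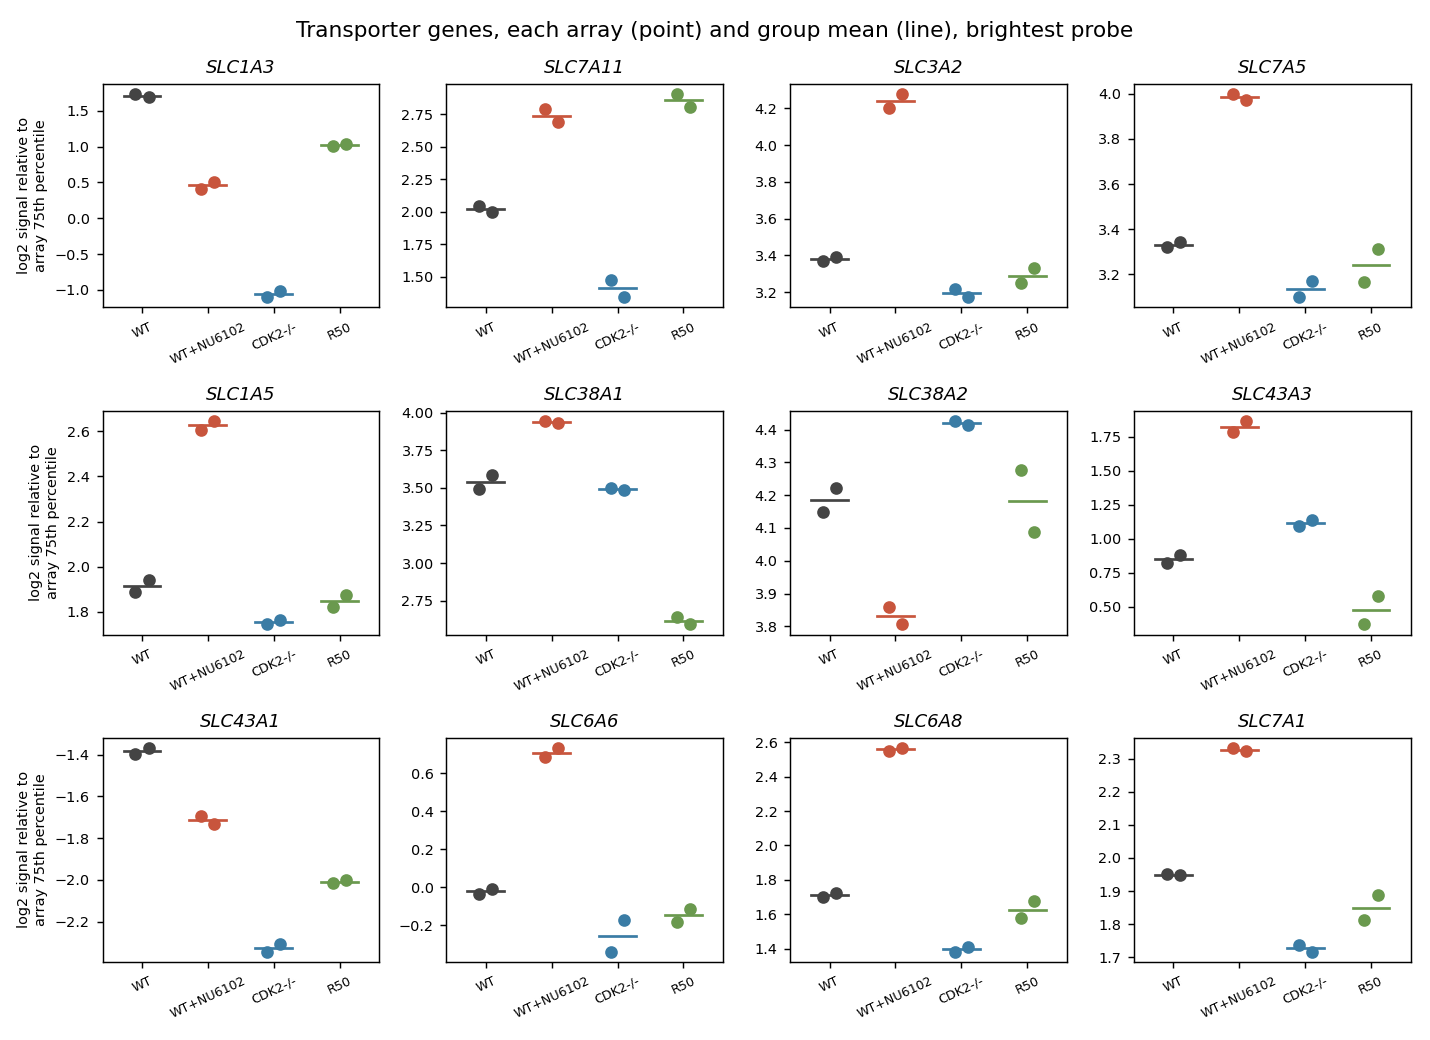
Normalized log2 signal (vertical axis, scaled to each panel) of 12 transporter genes, each by its brightest probe alone. Points are arrays and lines are group means, for WT, WT+NU6102, CDK2-/- and R50. For SLC3A2, SLC7A5, SLC1A5, SLC6A8 and SLC7A1 the treated arrays lie above all others, SLC1A3 is lowest in CDK2-/- (−2.77 against WT), and SLC38A1 is lowest in R50.

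The light chain SLC7A8 (LAT2), another exchanger of neutral amino acids, was near background. It read −3.90 and −4.93 in WT, −7.25 and −6.95 in WT+NU6102, −4.08 and −3.98 in CDK2-/- and −4.07 and −3.95 in R50. The treated arrays were lowest and not well above background, so only a bound holds there. The signal was at least 1.47-fold higher in WT, where 1 of 2 arrays was above background, and at least 1.96-fold higher in R50 (adjusted p = 0.00171 and 0.000689). The probe entered the test only through CDK2-/- and R50, where it was high, so these p-values are no separate support. Another probe of the gene was well above background on no array and was not tested. The bound sets the bright group's mean over both arrays against the lowest signal that was well above background on the treated arrays. After normexp correction the change against WT stayed below 2-fold, at −0.71. The light chain SLC7A6 and the adjacent SLC7A6OS, whose probes lie on opposite strands (chr16:68334665-68334724 and chr16:68334588-68334647), differed in pattern. SLC7A6OS rose by 0.56 with NU6102 (adjusted p = 0.00128), and SLC7A6 was higher by 0.36 in CDK2-/- than in WT (adjusted p = 0.0297). The SLC7A6 difference did not pass when replicate 1 of WT, or either array of CDK2-/- or of WT+NU6102, was left out (adjusted p = 0.0542 to 0.120).

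Of the carriers of cationic amino acids, SLC7A1 and SLC7A2 moved in opposite directions with NU6102. SLC7A1 (CAT1), the arginine and lysine carrier of most cells, read 1.95 on both WT arrays, 2.33 and 2.32 in WT+NU6102, 1.74 and 1.72 in CDK2-/- and 1.81 and 1.89 in R50. SLC7A2 (CAT2) read 0.72 and 0.64 in WT, −0.06 and −0.15 in WT+NU6102, 0.74 and 0.61 in CDK2-/- and 0.20 and 0.24 in R50. The treated arrays were thus the highest for SLC7A1 and the lowest for SLC7A2. The log2 fold changes were 0.38 for SLC7A1 (SE 0.05, adjusted p = 0.00191) and −0.78 for SLC7A2 (SE 0.07, adjusted p = 0.000568). SLC7A2 was also lower in R50 than in WT (−0.45, adjusted p = 0.00970) and than in CDK2-/- (−0.45, adjusted p = 0.00526). Against WT this did not pass without replicate 1 of WT or replicate 1 of R50 (adjusted p = 0.0559 and 0.0514).

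The system A carriers SLC38A1 (SNAT1) and SLC38A2 (SNAT2), which take up glutamine and small neutral amino acids with sodium, are neighbours on chromosome 12 and also moved apart. The brightest SLC38A1 probe (chr12:46577061-46577120) read 3.49 and 3.58 in WT, 3.94 and 3.93 in WT+NU6102, 3.50 and 3.49 in CDK2-/- and 2.64 and 2.59 in R50. SLC38A2 (chr12:46752710-46752769) read 4.15 and 4.22 in WT, 3.86 and 3.81 in WT+NU6102, 4.43 and 4.41 in CDK2-/- and 4.28 and 4.09 in R50. SLC38A1 was thus highest in treated cells and lowest in R50, with WT and CDK2-/- overlapping, whereas SLC38A2 was lowest in treated cells. SLC38A1 rose 1.32-fold with NU6102 (log2 fold change 0.40, SE 0.05, adjusted p = 0.00209) and was 1.84-fold lower in R50 than in CDK2-/- within the slide (−0.88, adjusted p = 0.000257). Against WT the value in R50 was −0.92 (adjusted p = 0.000542), just short of the 2-fold minimum, and against WT+NU6102 it was −1.32 (adjusted p = 3.77e-05). A second SLC38A1 probe gave 0.83, −0.74, −0.98 and −1.81 in the same order, and passed in each, and after normexp correction its difference between R50 and WT was called (−1.01). The remaining, dim probe of the gene passed in none of the comparisons. SLC38A2 fell by 0.35 with NU6102 (SE 0.07, adjusted p = 0.0125), and its other probe fell by 0.41 (adjusted p = 0.00117). The first of these did not pass without replicate 2 of WT or replicate 2 of WT+NU6102 (adjusted p = 0.0652 and 0.0637).

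Among the remaining SLC38 genes, SLC38A5, a glutamine carrier of system N, read 2.11 and 2.17 in WT and 2.52 and 2.48 in WT+NU6102. It rose by 0.36 with NU6102 (adjusted p = 0.00229) and was lower in CDK2-/- than in WT (−0.28, adjusted p = 0.00918), though not past the threshold without replicate 2 of WT or of CDK2-/- (adjusted p = 0.0501 and 0.0530). SLC38A7, a lysosomal exporter of glutamine, was higher in R50 than in WT and CDK2-/-, with log2 fold changes of 0.39 and 0.52 (adjusted p = 0.0308 and 0.00801). Its difference from WT did not pass without replicate 2 of WT, or without any 1 array of CDK2-/- or R50 (adjusted p = 0.0531 to 0.114), or with a replicate block (adjusted p = 0.0561). SLC38A9, the lysosomal arginine sensor of mTORC1, read 0.97 and 1.01 in WT, 0.50 and 0.49 in WT+NU6102, 1.29 and 1.26 in CDK2-/- and 0.92 and 1.11 in R50. It fell by 0.49 with NU6102 (SE 0.07, adjusted p = 0.00305). SLC36A1 (PAT1), which exports small amino acids from lysosomes with protons, went the other way and rose 1.60-fold. Its arrays read 0.24 and 0.20 in WT, 0.91 and 0.88 in WT+NU6102, 0.45 and 0.38 in CDK2-/- and 0.45 and 0.37 in R50, with a log2 fold change of 0.68 for treatment (SE 0.05, adjusted p = 0.000430). The treated arrays of SLC36A1 were above all others and those of SLC38A9 below all others.

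SLC43 proteins are facilitators that need no ion gradient. SLC43A1 (LAT3), a carrier of large neutral amino acids, read −1.40 and −1.37 in WT, −1.69 and −1.73 in WT+NU6102, −2.34 and −2.31 in CDK2-/- and −2.02 and −2.00 in R50. WT was highest, and the other groups fell below it without overlap in the order treated, R50 and CDK2-/-. The log2 fold changes against WT were −0.33 (adjusted p = 0.00255), −0.63 (adjusted p = 0.00109) and −0.94 (adjusted p = 0.000155) in that order. SLC43A2 (LAT4), with a like substrate range, read −0.52 and −0.59 in WT, −0.56 and −0.60 in WT+NU6102, 0.06 and −0.05 in CDK2-/- and 0.13 and −0.21 in R50. Both arrays of CDK2-/- and of R50, which shared a slide, were above those of WT and WT+NU6102, which shared the other, and slide and group cannot be told apart here. SLC43A2 was higher than in WT by 0.56 in CDK2-/- (adjusted p = 0.0190) and by 0.52 in R50 (adjusted p = 0.0323), and neither passed without the filter on dim probes (adjusted p = 0.0596 and 0.102). Nor did either pass without 1 of the WT arrays (adjusted p = 0.0693 and 0.0862 in CDK2-/-, 0.104 and 0.131 in R50), or without 1 of the CDK2-/- arrays (adjusted p = 0.0571 to 0.0905). In R50 it also did not pass without 1 of the WT+NU6102 arrays or replicate 1 of R50 (adjusted p = 0.0585 and 0.0632). SLC43A3, a member known to carry purine nucleobases rather than amino acids, read 0.82 and 0.88 in WT, 1.79 and 1.87 in WT+NU6102, 1.09 and 1.14 in CDK2-/- and 0.37 and 0.58 in R50. It rose 1.96-fold with NU6102 (0.97, adjusted p = 0.000527), and R50 was 2.56-fold below treated cells (−1.35, adjusted p = 0.000110). No arrays of different groups overlapped for SLC43A3.

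The SLC6 family holds carriers of creatine, taurine and transmitters beside those of amino acids. SLC6A8, the creatine carrier, has a pseudogene copy, SLC6A10P, and their probes are shown because they cannot be read as independent genes. Both sequences are as given in the scanner files, 5′ to 3′, and capitals mark the longest run of bases that they share, of 16 bases.

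SLC6A8 probe, chrX:152960189-152960248, plus strand, hg19: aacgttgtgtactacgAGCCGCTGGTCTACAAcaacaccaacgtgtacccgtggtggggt
SLC6A10P probe, chr16:32890621-32890762, minus strand, hg19: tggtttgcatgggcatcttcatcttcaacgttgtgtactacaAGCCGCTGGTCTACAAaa

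Laid over each other without gaps, the probes overlap by 34 bases, of which 32 match. The SLC6A8 probe read 1.70 and 1.73 in WT, 2.55 and 2.57 in WT+NU6102, 1.38 and 1.41 in CDK2-/- and 1.58 and 1.68 in R50. The SLC6A10P probe read 1.22 and 1.25 in WT, 2.21 and 2.25 in WT+NU6102, 0.97 and 0.97 in CDK2-/- and 1.07 and 1.18 in R50. In both, the treated arrays stood highest and those of CDK2-/- lowest. With NU6102 SLC6A8 rose 1.79-fold (log2 fold change 0.84, SE 0.05, adjusted p = 0.000246) and the SLC6A10P probe 1.99-fold (0.995, SE 0.06, adjusted p = 0.000193), which lies just under the 2-fold minimum. In R50 the SLC6A10P probe was 2.15-fold below treated cells (−1.11, adjusted p = 6.85e-05). A second SLC6A10P probe, with no such match to an SLC6A8 probe, changed by 0.19 and did not pass (adjusted p = 0.161), so the level of the pseudogene itself is uncertain. SLC6A8 has 2 further tested probes, which rose by 0.90 and 0.25. The last of these, nearest the end of the gene at chrX:152961514-152961573, was higher in CDK2-/- than in WT (0.35, adjusted p = 0.00923) where the brightest probe was lower (−0.32, adjusted p = 0.00803), so no direction can be given for SLC6A8 in the knockout.

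SLC6A6, the taurine carrier, rose 1.66-fold with NU6102 by its brighter probe (chr3:14487331-14489120, spanning an intron). This probe read −0.04 and −0.01 in WT, 0.69 and 0.73 in WT+NU6102, −0.34 and −0.17 in CDK2-/- and −0.18 and −0.11 in R50, and the treated arrays stood above all others. The log2 fold change was 0.73 (SE 0.07, adjusted p = 0.000783). The other probe (chr3:14530446-14530505) changed by 0.18 and did not pass, and it was higher in R50 than in WT+NU6102 (0.27, adjusted p = 0.0159), where the brighter one was lower (−0.86, adjusted p = 0.000273). SLC6A16, an orphan member, was dim at −3.24 and −3.44 in WT, −4.47 and −5.02 in WT+NU6102, −3.11 and −2.90 in CDK2-/- and −3.43 and −3.75 in R50, and well above background on 7 of 8 arrays, 1 of them treated. The treated arrays were lowest, and their difference from WT was −1.41 on the log2 scale (SE 0.21, adjusted p = 0.00371). R50 was above treated cells by 1.16 (adjusted p = 0.00606). The probe entered the test through the other groups, where it was high, and not through treated cells, so these p-values are no separate support. After normexp correction the change with NU6102 was −0.58, below the 2-fold minimum. The glycine carrier SLC6A9 fell by 0.37 with NU6102 (adjusted p = 0.0255) and was lower in CDK2-/- than in WT (−0.38, adjusted p = 0.0331). Neither passed without replicate 2 of WT (adjusted p = 0.0865 and 0.104) or without any 1 array of the other group compared (adjusted p = 0.0843 to 0.131), and that in CDK2-/- did not without 1 of the WT+NU6102 arrays (adjusted p = 0.0589). The change with NU6102 did not pass within slide 2 alone (adjusted p = 0.0632), nor that in CDK2-/- with a replicate block (adjusted p = 0.0534). Another SLC6A9 probe passed in neither.

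**Figure D4:**
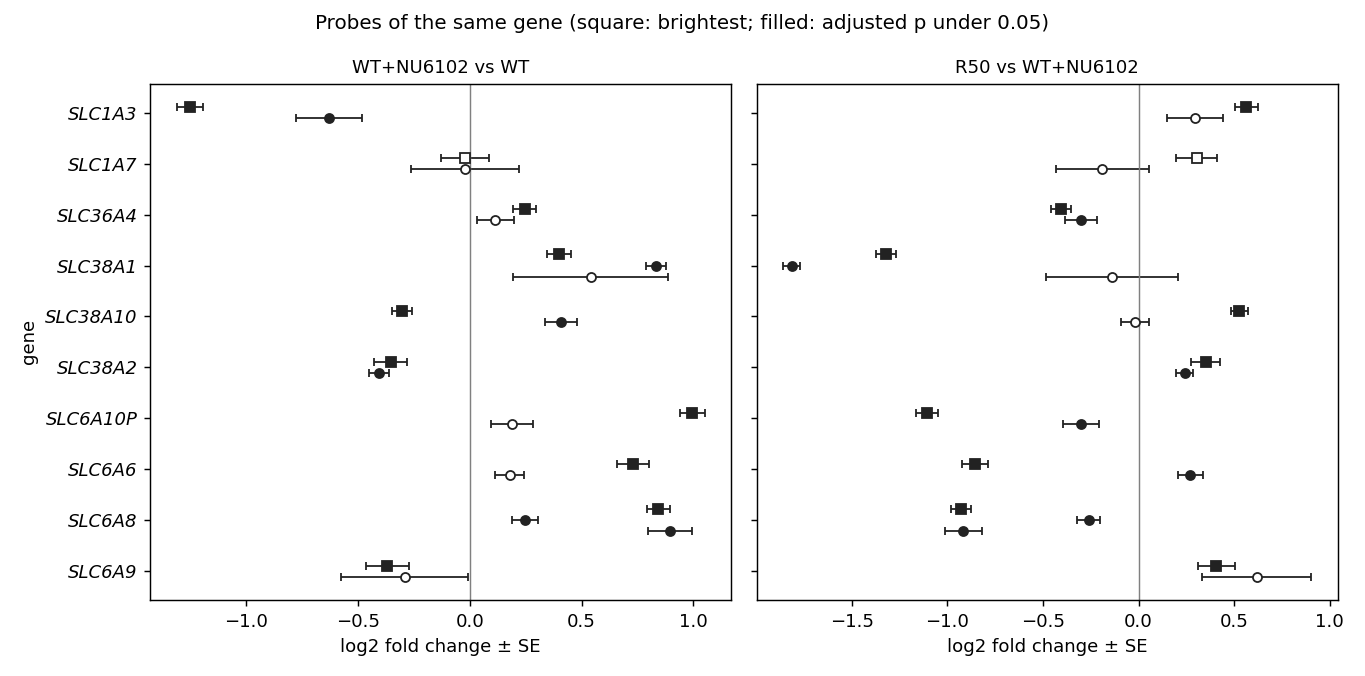
Log2 fold change with standard error (horizontal axis) of each tested probe of the 10 genes with more than 1, in WT+NU6102 against WT (left) and R50 against WT+NU6102 (right), comparisons that share the treated arrays. Squares are the brightest probes and filled symbols passed. Probes of SLC38A10 passed in opposite directions on the left (−0.30 and 0.41) and those of SLC6A6 on the right (−0.86 and 0.27).

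Promoter sequences around the annotated start, from 250 bases before to 50 after it (RefSeq, GRCh38.p14), were found for 45 of the 62 genes. They were searched on both strands for TGATGNAA, the core of the C/EBP-ATF response element through which ATF4 is known to act in amino acid lack. It is in 3.62% of 35116 promoters of this length, and in those of 6 of the 45 transporter genes, all of them tested. The antioxidant response core TGACNNNGC, to which NRF2 is known to bind, was searched likewise and is in 13.3% of all promoters and in those of 7 transporter genes (SLC1A3, SLC1A5, SLC3A2, SLC7A1, SLC7A5, SLC7A6 and SLC7A7). For both motifs the percentages count promoters of all genes, while a transporter gene was counted if any of its promoters matched. These figures are in unlike units, and no enrichment was tested. The windows below are shown so that the letters can be set beside the values. Each reads 5′ to 3′ along the gene, with the match in capitals.

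SLC1A5, chr19:46784893-46784922, minus strand: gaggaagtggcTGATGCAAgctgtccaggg
SLC38A1, chr12:46266502-46266531, minus strand: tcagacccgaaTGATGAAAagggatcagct
SLC7A1, chr13:29595663-29595692, minus strand: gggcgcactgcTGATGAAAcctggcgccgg
SLC3A2, chr11:62881725-62881748, plus strand, match on the opposite strand: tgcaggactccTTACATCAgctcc
SLC1A3, chr5:36596357-36596386, plus strand: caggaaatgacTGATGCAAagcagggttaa
SLC1A4, chr2:64989381-64989410, plus strand, match on the opposite strand: gcggctcccgtTTGCATCAtctccagccgg

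The match begins 97 bases before the start in SLC1A5 and 220 before it in SLC1A3, and 37 bases after it in SLC3A2. Of these 6 genes SLC1A5, SLC38A1, SLC7A1 and SLC3A2 rose with NU6102 (0.71, 0.40, 0.38 and 0.86), SLC1A3 fell (−1.25) and SLC1A4 did not pass (−0.06). Of the genes with the antioxidant core, SLC1A5, SLC3A2, SLC7A1 and SLC7A5 rose, SLC1A3 fell, SLC7A6 did not pass and SLC7A7 was not tested. Of all 41 tested genes 17 rose and 10 fell, and a link between either motif and the changes was not tested. SLC7A11 is not in the promoter table. A match is a run of letters, and binding was not measured.

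Genes linked to these carriers were read from 5 lists, each by its brightest probe, and the values are descriptions beside the 23.6% of all probes that rose and the 21.1% that fell with NU6102. Of 39 tested genes of the integrated stress response, through which ATF4 induces transporters, 18 rose and 11 fell with treatment, with a median log2 fold change of 0.18. The stress factor DDIT3 (CHOP) rose by 1.94 (adjusted p = 0.000154), while EIF2AK2 (−1.21), the kinase PKR, and NUPR1 (−1.18) fell, and CBS was at least 1.57-fold lower, since it was not well above background in treated cells. In CDK2-/- cells 5 genes of this list were higher and 15 lower than in WT (15.8% and 15.3% of all probes), with DDIT4 at −1.51 and NUPR1 at −1.88. Against CDK2-/-, R50 cells were higher in both by 2.40 and 2.47 within the slide.

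Among 11 tested partners and enzymes of glutamine use, 6 rose and 1 fell with NU6102. SGK1, a kinase that raises carriers at the membrane, rose by 1.43 (adjusted p = 0.000208). NEDD4L, a ubiquitin ligase that removes membrane carriers, fell by 1.78 (adjusted p = 0.000121). In CDK2-/- against WT 4 of the 11 were higher and 2 lower (15.8% and 15.3% of all probes). In R50 against WT 1 was higher and 0 lower (9.78% and 12.8% of all probes). None was called in either, where 4.74% and 2.59% of all probes were. Of 15 glutathione and NRF2 genes 7 rose and 2 fell, with SRXN1, which repairs peroxiredoxins, up by 1.04 (adjusted p = 0.000191) and GGT5 down by 1.93 (adjusted p = 0.000158). GGT5 was also lower than WT in CDK2-/- (−2.10) and in R50 (−1.23).

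Of 33 genes of amino acid sensing by mTORC1, 14 rose and 5 fell with NU6102. RRAGB, one of the Rag GTPases that recruit mTORC1 to the lysosome, fell by 1.12 (adjusted p = 0.00143). WDR24, a subunit of the GATOR2 complex of this pathway, was lower in R50 than in treated cells (−1.15, adjusted p = 6.83e-05). In CDK2-/- against WT 3 of the 33 were higher and 6 lower (15.8% and 15.3% of all probes). In R50 against WT 1 was higher and 4 lower (9.78% and 12.8% of all probes). None was called in either, beside the same 4.74% and 2.59% of all probes. Of 16 tested amino acid and peptide carriers outside the rule 5 rose and 3 fell. SLC15A1 (PEPT1), the intestinal carrier of small peptides, was not well above background in CDK2-/- and was at least 18.6-fold lower there than in WT (adjusted p = 1.58e-05). Its log2 fold change in R50 against WT was 0.13 and did not pass (adjusted p = 0.511). SLC15A3, a lysosomal peptide carrier, was not well above background in treated, CDK2-/- and R50 cells, and was at least 2.24-fold, 2.50-fold and 2.18-fold lower in them than in WT (adjusted p = 0.00148, 0.00226 and 0.0376). Both carriers entered the test through groups where they were high, SLC15A3 through WT alone, so these p-values are no separate support.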

How the data were processed

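RNA of HCT-116 cells in 4 groups of 2 arrays was labelled with Cy3. The authors deposited scanner files with a background-subtracted intensity per spot, made with Agilent Feature Extraction 11.5.1.1 per the submitters' processing notes and not normalized between arrays. The authors also deposited log2 values for 28719 probes, processed in GeneSpring GX, which follow the log2 scanner signal minus a constant per array and are centred on the median of each probe. How those probes were chosen is not given in the sources used here.

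Outlier and control spots were dropped, log2 of the processed signal was scaled to the 75th percentile of its array, and replicate spots were averaged. Probes detected (well above background) in both duplicates of any group, and usable on all arrays, were tested, which left out 31 probes as unusable. No spot is marked saturated. Limma 3.58.1 (R 4.3.3) fitted all 4 groups together without a block, two-sided, and p-values were adjusted by Benjamini-Hochberg over 28677 probes. The fit was tested on simulated data. Each array had 32376 to 36206 spots above background, and precision is limited by the 2 arrays of a group.

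A gene is read from its tested probe with the highest mean over the 8 arrays. Named genes are up to 10 called genes per comparison, 14 carriers whatever their values, at most 5 called genes of each list by the size of their change in any comparison, and CDK2. Some of the list genes and markers are not reported here. SLC1A1, SLC1A7, SLC3A1, SLC7A2, SLC7A5P1, SLC7A6, SLC7A6OS, SLC38A5, SLC38A7, SLC38A10, SLC6A9 and the cell type markers named with changes were chosen after their values were seen. Members and lists were chosen with earlier results of these data known.

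Probe positions (hg19) are given for the WT and WT+NU6102 arrays alone, and exons were not annotated here. Of 75 member transcripts 67 matched RefSeq, all under the symbol in the files. Alternatives were normexp correction (offset 50), quantile normalization, other filters on dim probes, a trended prior variance, the authors' processed values, other thresholds, a replicate block, each slide alone, the methods' t-test and ANOVA, other probes of a gene, and leaving out each array. Figures were drawn with matplotlib 3.10.9.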

Additional observations from a re-analysis of the deposited data

How the results depend on the processing

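Counts of called transporter probes are small, so single probes move them by over 1.5 times. Under normexp correction 1 probe was called in WT+NU6102 against WT, 1 in CDK2-/- against WT and 1 in R50 against WT. With probes well above background on all 8 arrays 1 was called in WT+NU6102 against WT. Without the fold minimum the counts were 33 in WT+NU6102 against WT, 20 in CDK2-/- against WT, 15 in R50 against WT, 19 in R50 against CDK2-/- and 37 in R50 against WT+NU6102. With a minimum of 1.5 on the log2 scale they were 1, 1, 0, 1 and 2. The F-test passed 2 probes without a filter on dim probes, 33 with a trended prior variance and 10 by the methods' ANOVA. For these F-test counts of transporter probes, and for those below, the share of all tested probes was not computed. In R50 against WT+NU6102 the methods' t-test called 5, before and after adjustment, and in R50 against WT 0. Passed probes in R50 against WT were 7 higher and 7 lower after quantile normalization, in place of 6 and 9.

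Leaving out each array in turn gave 3 to 5 calls in WT+NU6102 against WT (5 without replicate 2 of WT or replicate 1 of WT+NU6102), 2 and 2 in CDK2-/- against WT, 0 and 0 in R50 against WT, 2 to 3 in R50 against CDK2-/- (2 without replicate 1 of CDK2-/- or replicate 2 of R50) and 5 to 8 in R50 against WT+NU6102 (8 without replicate 1 and 5 without replicate 2 of WT+NU6102). The F-test passed 2 to 7 probes without 1 array, for each of the 8. A group left with 1 array is assumed to vary like the others.

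Replicate numbers do not pair the arrays, since deviations of same-numbered arrays correlated between −0.03 and 0.05. With a replicate block the counts of calls were 3, 2, 0, 3 and 6 in the order above, as without it, and the F-test passed 10 probes rather than 21. Of the named differences that passed, 6 did not with the block. Each slide alone gave 3 calls, for treatment on slide 2 and for R50 against CDK2-/- on slide 1.

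Of 88 passed differences of 28 named genes, 31 did not pass when at least 1 array was left out. No scaling, filter, prior variance, block, slide or left-out array turned the direction of a passed one. Without a filter on dim probes 25 of them no longer passed. Another probe of the gene gave the opposite sign for SLC38A1 in R50 against WT (0.40) and against CDK2-/- (0.15), for SLC6A6 in R50 against WT (0.45) and against WT+NU6102 (0.27), for SLC6A8 in CDK2-/- against WT (0.35) and in R50 against CDK2-/- (−0.36), and for SLC38A10 in WT+NU6102 against WT (0.41) and in R50 against WT+NU6102 (−0.02). The cause was not tested.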
